A study of Mus musculus with 6 samples.

Results

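Co-stimulation, checkpoint and adhesion ligands are surface proteins through which a cell presenting antigen instructs, restrains or holds the lymphocyte or phagocyte that meets it. The 9 genes examined were the checkpoint ligands Cd274 and Pdcd1lg2, the co-stimulatory genes Cd80, Cd86, Icosl and Cd40, the adhesion ligands Icam1 and Vcam1, and Cd47. The members were given by name, and their predicted enhancer-promoter pairs were found by Ensembl identifier in 2 tables from the activity-by-contact (ABC) model, 1 for control oligodendrocyte precursor cells (Ctr-OPCs) and 1 for cells given interferon gamma (IFN-γ-OPCs). Of the 9, 7 were target genes in Ctr-OPCs and 6 with IFN-γ, among 32049 target genes in either table. They accounted for 22 of 66637 element-gene pairs in Ctr-OPCs and for 23 of 71478 in IFN-γ-OPCs.

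Both groups were cultured primary mouse OPCs, given as strain C57BL/6j and genotype Sox10-Cre/RCE, grown in proliferation medium with PDGF-AA and bFGF. The Sox10-driven Cre switches on a green fluorescent reporter throughout the oligodendrocyte lineage. By the study's methods, the Cre line had a C57BL/6j background and the reporter line a mixed C57BL/6xCD1 background. The OPCs came, by the same methods, from pooled brains of young pups, sorted either by that reporter or by CD140a. From 24 h after passaging, Ctr-OPCs had this medium alone and IFN-γ-OPCs had it with 100 ng/mL IFN-γ. There were 3 H3K27ac-HiChIP libraries per condition, from different litters by the study's methods. HiChIP enriches chromatin contacts of regions that carry the histone mark H3K27ac, found at active promoters and enhancers. Each table pools its 3 libraries, so no value below has a replicate error or a test, and the read depth behind it is unknown.

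A T cell that recognises antigen also reads CD80, CD86 and ICOS ligand as signals to activate, and PD-L1 and PD-L2, encoded by Cd274 and Pdcd1lg2, as signals to stop, while CD40 on the presenting cell receives a signal from the T cell. ICAM1 and VCAM1 bind leukocyte integrins, and CD47 binds SIRPα on phagocytes and restrains engulfment. In many cell types IFN-γ is known to raise PD-L1 and ICAM1. GAS, IRF and kappa-B motifs are known from promoters and enhancers of genes that inflammatory signals act on.

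In the ABC model each element has an activity, a signal from ATAC-seq and H3K27ac CUT&RUN coverage, and a contact with the gene, estimated here from HiChIP in 5 kb bins. The ABC score is the activity times the contact of the element as a share of the gene total, which sums that product over all elements around the gene. The tables list scores of 0.02 or more, and a connection is a score above 0.05. The promoter quantile ranks the activity of a gene's promoter among all promoters from 0 to 1, and the lowest listed is 0.4. All contacts below are the adjusted contacts, to which the model adds a pseudocount, and elements in the same bin carry the same contact. Activity, contact and gene total have no unit. In bulk material, a change in the share of cells and a change per cell cannot be told apart.

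The number of connections of the members hardly differed between conditions, while the promoter quantile of some of them did. They had 6 connections in Ctr-OPCs and 5 with IFN-γ, or 3 and 4 without Cd47, which turns the direction. Cd274 had 1 more with IFN-γ, Cd47 had 2 fewer, and the other 5 listed members had the same number. Over all genes listed in either table, 14.9% had more connections in IFN-γ-OPCs and 13% had fewer, close to the 1 of 7 members in each direction. The promoter quantile was higher by more than 0.1 for Icam1 and Cd274 and lower by more than 0.1 for Cd47. Of the 20321 genes listed in both tables, 8.79% were higher and 8.45% lower by that margin. The value of Cd274 cannot be separated from that of its neighbour Plgrkt, and the value of Cd47 belongs to an outlying start. Gene totals moved little. None of the 6 members listed in both tables passed 1.5-fold in either direction, beside 0.615% of all genes higher and 0.118% lower. The median log2 ratio of the gene total, IFN-γ-OPCs over Ctr-OPCs, was -0.10 for these 6 and -0.07 for all genes, and for the 6 it was -0.05 with the power-law total.

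**Figure D1:**
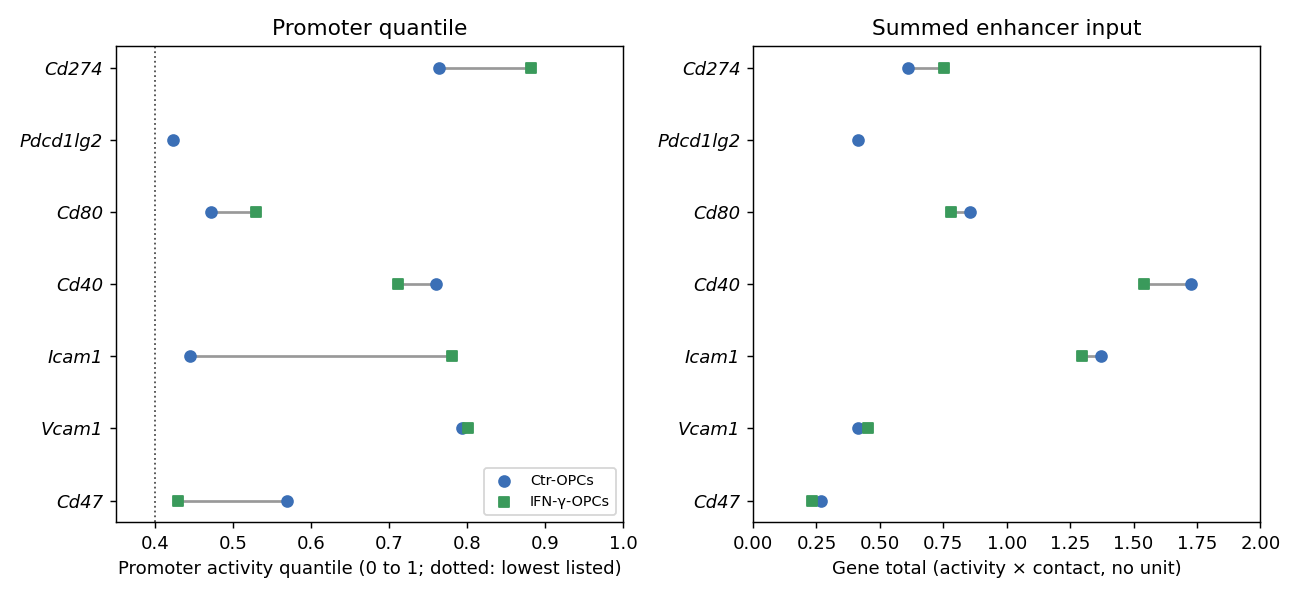
Promoter activity quantile (left) and gene total, activity times contact summed over a gene's elements (right), for the 7 listed members in Ctr-OPCs (circles) and IFN-γ-OPCs (squares), with 1 pooled value per condition and no error bars. Icam1 has the longest step in quantile, from 0.445 to 0.781, and Pdcd1lg2 has no IFN-γ-OPC value.

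Cd274 (ENSMUSG00000016496, chr19:29367455-29388095, plus strand) encodes PD-L1, which binds PD-1 on T cells and dampens their response. Its promoter quantile was 0.764 in Ctr-OPCs and 0.882 with IFN-γ. That difference was larger than the difference of 93.2% of the genes listed in both tables. Its gene total was 0.609 in Ctr-OPCs and 0.751 with IFN-γ, a log2 ratio of 0.30 that exceeded 95.1% of genes. Of the members listed in both tables, only Cd274 and Vcam1 had a higher gene total with IFN-γ. By the power-law total only Cd274 and Cd47 did, with log2 ratios of 0.324 and 0.041, and Vcam1 was at -0.004.

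Cd274 had the same 3 elements in both conditions. The strongest, chr19:29361670-29362169 in Ctr-OPCs, lay 5.54 kb before the Cd274 start, at an annotated start of the neighbouring gene Plgrkt. It was a connection in both conditions, with activity 2.10 and 1.79, contact 0.0267 and 0.0367, and score 0.0920 and 0.0874 in Ctr-OPCs and IFN-γ-OPCs. Its activity was thus lower with IFN-γ while its contact was 1.38 times that of Ctr-OPCs. The next lay 4.79 kb into the gene, over a Cd274 coding exon and part of its UTR, and spanned chr19:29371815-29372566 in Ctr-OPCs and chr19:29372001-29372500 with IFN-γ. Its activity was 0.709 in Ctr-OPCs and 1.09 with IFN-γ, a ratio of 1.54, and its contact was 0.0320 and 0.0411. Its score was 0.0373 in Ctr-OPCs and 0.0598 with IFN-γ, which made it the connection that Cd274 gained. By the power-law score, which replaces measured contact by distance, it was above 0.05 in both conditions, at 0.0788 and 0.0971. The same element was listed with 3 target genes in Ctr-OPCs and 6 with IFN-γ. The last element, 6.36 kb into the gene, had activity 0.458 and 0.493 and stayed under the connection cut-off at 0.0241 and 0.0270. It lies in the same contact bin as the element before it, so their equal contacts are 1 measurement.

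The gained element is shown because it holds 1 of the few interferon-type motifs among the members' elements. GAS, IRF and kappa-B motifs were searched on both strands of the central 500 bases of every element, as TTCNNNGAA for GAS, as GAAA, any 2 bases and GAAA for IRF, and as GGG, any 3 bases and TTCC for kappa-B. The 300 bases below (mm10, chr19:29371915-29372214, plus strand, 5′ to 3′) hold the IRF match, in capitals, at chr19:29372002.
Cd274 element: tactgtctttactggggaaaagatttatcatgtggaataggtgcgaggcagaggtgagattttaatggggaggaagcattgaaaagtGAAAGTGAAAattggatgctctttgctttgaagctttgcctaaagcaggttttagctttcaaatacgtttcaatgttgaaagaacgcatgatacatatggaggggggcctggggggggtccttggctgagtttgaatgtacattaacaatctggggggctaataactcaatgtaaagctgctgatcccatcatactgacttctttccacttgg
An IRF match stood in 5.41% of all elements in Ctr-OPCs and in 8.60% with IFN-γ, and in 2 of 22 and 2 of 23 of the members' elements. A match describes the letters and not a bound site.

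With IFN-γ, 3 more elements were listed near the end of Cd274, at 13.4, 15.2 and 21.3 kb from its start, with activities of 0.318, 0.512 and 0.603. None was listed with Cd274. Their only target was AC119228.1, an antisense gene inside Cd274, whose scores stand against its own total. These scores were 0.0203, 0.0328 and 0.0247, where the lowest listed is 0.02. No listed element of Ctr-OPCs overlapped them, and whether such elements were absent there or scored under 0.02 cannot be told. Plgrkt, whose start in the tables lies 65 bp from that of Cd274 on the other strand, was listed with the same elements in all 6 pairs of Cd274. Its promoter quantile, 0.767 in Ctr-OPCs and 0.893 with IFN-γ, and its log2 ratio of gene total, 0.30, were close to those of Cd274, so the values of this shared promoter region cannot be given to either gene alone.

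**Figure D2:**
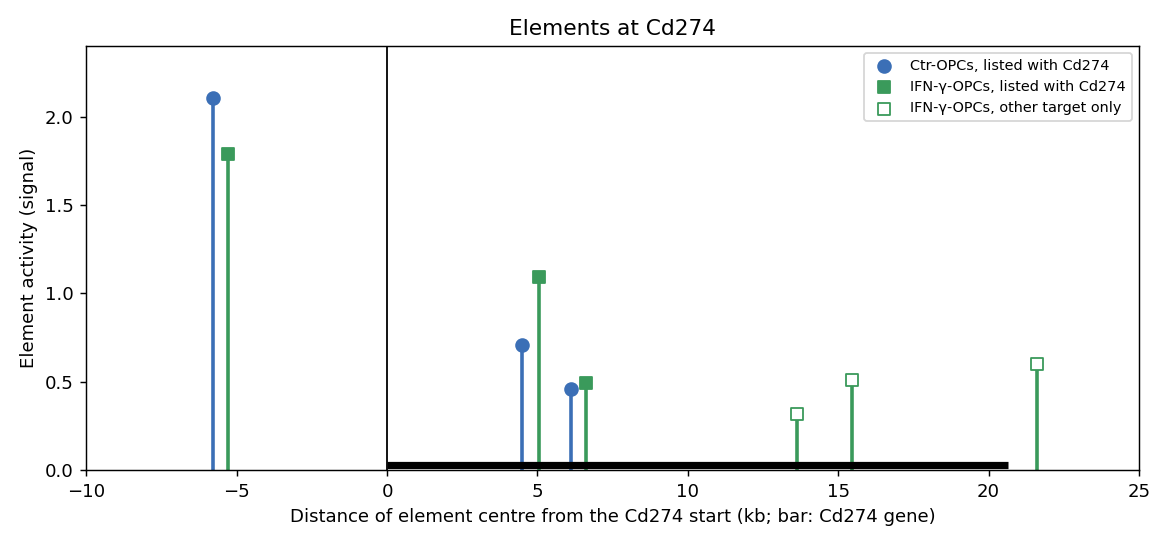
Activity (signal) of the elements around Cd274 against distance from its start in kb, in Ctr-OPCs (circles) and IFN-γ-OPCs (squares), with the conditions drawn slightly apart from the true distance; the black bar is the Cd274 gene. Filled symbols are listed with Cd274, open ones with another target. The element at 4.79 kb rises from 0.709 to 1.09, and the 3 elements from 13.4 kb on are listed in IFN-γ-OPCs alone.

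Pdcd1lg2 (ENSMUSG00000016498, chr19:29410919-29471161, plus strand) encodes PD-L2, the other ligand of PD-1. It was listed in Ctr-OPCs alone, with a promoter quantile of 0.424, near the lowest listed, and a gene total of 0.414. Its single pair was an intergenic element at chr19:29185029-29185528, 226 kb before its start, with activity 0.662 and score 0.0209, also near the lowest listed. Whether its score or its promoter fell below the limits of the table in IFN-γ-OPCs cannot be read from it. Within 50 kb of its start lay 3 elements in Ctr-OPCs and 6 with IFN-γ, all of them among the elements around Cd274 described above, and none was listed with Pdcd1lg2.

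Cd80 (ENSMUSG00000075122, chr16:38455561-38496335, plus strand) encodes a ligand that binds CD28 and CTLA-4 on T cells. Its promoter quantile was 0.472 in Ctr-OPCs and 0.530 with IFN-γ, and its gene total was 0.855 and 0.782. It had 1 connection in each condition, the same intron element at chr16:38461214-38461713. The activity of that element was 1.32 in Ctr-OPCs and 0.999 with IFN-γ, its contact 0.0472 and 0.0469, and its score 0.0731 and 0.0600. A further intron element, at chr16:38463243-38463742, was listed in IFN-γ-OPCs alone, with activity 0.343 and score 0.0206. The RefSeq start of Cd80 lies 3.37 kb after the start used in the tables, so its promoter quantile belongs to the earlier start. The shared intron element was also listed with Adprh and the antisense gene D930030I03Rik.

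Cd40 (ENSMUSG00000017652, chr2:165055627-165072948, plus strand) encodes the receptor for the T cell protein CD40L, through which antigen-presenting cells are licensed. Its promoter quantile was 0.760 in Ctr-OPCs and 0.712 with IFN-γ. It had the highest gene total of the members, 1.73 in Ctr-OPCs and 1.54 with IFN-γ, of which the listed pairs held only 2.48% and 7.28%. It had no connection in either condition, and no element was listed with it in both. In Ctr-OPCs its element was chr2:165062582-165063879, 7.60 kb into the gene, with activity 0.881 and score 0.0248. This element lay over a coding exon and part of a UTR, near an annotated start of a Cd40 transcript. The 4 coding transcripts of Cd40 all start within 1 kb of the start used in the tables. In IFN-γ-OPCs Cd40 had an intergenic element, chr2:165050402-165051838, 4.51 kb before its start, with activity 0.856 and score 0.0449. The other lay over a coding exon at chr2:165056721-165057506, with activity 0.530 and score 0.0278. All 3 elements had Cd40 as their only target, and none overlapped an element of the other table.

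Cd86 (ENSMUSG00000022901), the partner of Cd80 as a CD28 ligand, and Icosl (ENSMUSG00000000732), the ligand of ICOS, were listed in neither table. Within 50 kb of the Cd86 start there was 1 element in Ctr-OPCs, 26.3 kb away with activity 0.356, listed with Ildr1. Within 50 kb of the Icosl start there was 1, over a Dnmt3l exon 19.5 kb away with activity 1.04, listed with Aire. Neither window held an element in IFN-γ-OPCs. The tables do not say whether promoters of these genes fell under the lowest quantile listed or their scores under 0.02.

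Icam1 (ENSMUSG00000037405, chr9:21015985-21028817, plus strand) encodes the ligand of the integrins LFA-1 and Mac-1 on leukocytes. Its promoter quantile was 0.445 in Ctr-OPCs, close to the lowest listed, and 0.781 in IFN-γ-OPCs. The difference of 0.336 was exceeded by 10 of the 20321 genes listed in both tables, so Icam1 stood above 99.9% of them. Genes listed in 1 condition only, including any whose promoter rose from under 0.4, are not among them and cannot be ranked. Its gene total showed no such step and was 1.37 in Ctr-OPCs and 1.30 with IFN-γ.

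The promoter is shown because it is where Icam1 differed most between the tables and because it was the only one with a motif match among the 6 members with a RefSeq promoter sequence here, namely Icam1, Icosl, Cd80, Cd47, Cd274 and Pdcd1lg2. The 250 bases before the RefSeq start (GRCm38.p6, mm10, chr9:21015690-21015939, plus strand, 5′ to 3′) hold a GAS match, in capitals.
Icam1 promoter: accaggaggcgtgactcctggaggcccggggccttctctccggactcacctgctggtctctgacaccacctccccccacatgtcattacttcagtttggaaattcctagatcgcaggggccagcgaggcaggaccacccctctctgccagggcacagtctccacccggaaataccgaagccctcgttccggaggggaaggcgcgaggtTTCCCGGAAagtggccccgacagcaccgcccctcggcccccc
Over 32851 RefSeq promoters, the 250 bases before the start held a GAS match in 7.02%, an IRF match in 2.98% and a kappa-B match in 4.65%. Only the letters given above were searched, so sites of other forms are not marked or counted.

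No pair of Icam1 itself was a connection in either condition. The shared element, in an intron at chr9:21017241-21017872, had activity 0.494 in Ctr-OPCs and 0.431 with IFN-γ, contact 0.0581 and 0.0649, and score 0.0209 and 0.0215. A coding exon element at chr9:21018354-21019263, with activity 0.621 and score 0.0263, was listed in Ctr-OPCs alone and overlapped no element of IFN-γ-OPCs. An element over a Mrpl4 exon and UTR 7.22 kb before the start, chr9:21008203-21009336, was listed with Icam1 in IFN-γ-OPCs alone, at activity 0.876 and score 0.0283. It was present in Ctr-OPCs with activity 1.02, where it was listed with Mrpl4.

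The most active element of any member in Ctr-OPCs was that of Icam1 in an intron of S1pr2, chr9:20972408-20972907, 43.3 kb before the Icam1 start. Its activity was 5.23 in Ctr-OPCs and 3.88 with IFN-γ. With Icam1 it was listed in Ctr-OPCs alone, at contact 0.00819 and score 0.0312. In IFN-γ-OPCs it had 9 targets, Icam1 not among them, and the limit of the table puts its contact with Icam1 there at no more than 0.00668. Its first 300 bases (mm10, chr9:20972408-20972707, plus strand) are shown because they hold a GAS match at chr9:20972456 and a kappa-B match at chr9:20972525, in capitals, the only kappa-B match among the members' elements.
Icam1 element in S1pr2: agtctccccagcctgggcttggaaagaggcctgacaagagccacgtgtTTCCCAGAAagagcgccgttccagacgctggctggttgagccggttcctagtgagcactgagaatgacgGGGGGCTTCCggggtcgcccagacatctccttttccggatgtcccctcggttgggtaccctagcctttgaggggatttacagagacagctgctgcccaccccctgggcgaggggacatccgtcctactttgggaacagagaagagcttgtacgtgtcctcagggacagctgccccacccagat
Of all elements, 13.9% in Ctr-OPCs and 15.2% with IFN-γ held a GAS match, and 7.77% and 7.50% a kappa-B match. Of the members' elements 1 of 22 and 1 of 23 held GAS, and 1 of 22 and 0 of 23 kappa-B. The neighbours Icam4 and Icam5 encode related adhesion proteins. Icam4 went from 1 connection to 0, with promoter quantiles of 0.747 and 0.767, and Icam5 had 0 in both, with 0.761 and 0.789.

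**Figure D3:**
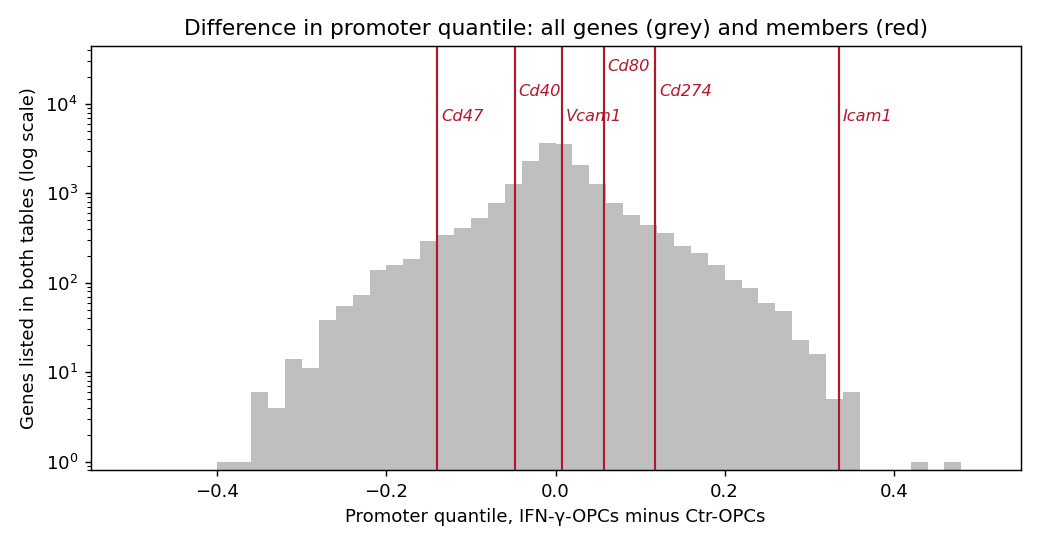
Difference in promoter quantile, IFN-γ-OPCs minus Ctr-OPCs, for the 20321 genes listed in both tables (grey bars, number of genes on a log scale) with the 6 members listed in both marked by red lines. Icam1 at 0.336 lies in the far right tail, Cd274 at 0.118 and Cd47 at -0.14 lie in the flanks, and Cd40, Vcam1 and Cd80 lie near the middle.

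Vcam1 (ENSMUSG00000027962, chr3:116109949-116129688, minus strand) encodes the ligand of the integrin VLA-4. Its promoter quantile was 0.793 in Ctr-OPCs and 0.801 with IFN-γ, and its gene total 0.412 and 0.451. It had 1 connection in each condition, but through a different element. In Ctr-OPCs this was an intron element at chr3:116113598-116114097, with score 0.0505 in Ctr-OPCs and 0.0440 with IFN-γ and activity 1.14 and 1.21. In IFN-γ-OPCs it was an element in an intron of Cdc14a, chr3:116305215-116305714, 176 kb before the Vcam1 start, with score 0.0246 in Ctr-OPCs and 0.0503 with IFN-γ. Both connections passed the cut-off by less than 0.001, so they are best read as scores. By the power-law score the Vcam1 intron element was above 0.05 in both conditions, at 0.0657 and 0.0704. The Cdc14a intron element was above it in neither, at 0.0166 and 0.0176.

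The distant elements of Vcam1 differed more in contact than in activity. The Cdc14a intron element had activity 2.32 in Ctr-OPCs and 2.46 with IFN-γ, and contact 0.00436 and 0.00923, a ratio of 2.12. The element at an annotated start of Cdc14a, chr3:116423824-116424323, 294 kb away, had activity 4.27 and 3.97 and contact 0.00212 and 0.00386, a ratio of 1.83. Without the pseudocount, which is over 0.5 of the Ctr-OPC value, the ratio was 2.97. It was shared with 24 target genes in Ctr-OPCs and 22 with IFN-γ, Vcam1 included. Its score with Vcam1 was 0.0219 and 0.0340. Within the gene, a coding exon element at chr3:116114274-116114773 went the other way: its activity was 0.654 and 0.961, a ratio of 1.47, at a contact of 0.0183 and 0.0164. An intergenic element past the gene's end, chr3:116104818-116105317, with activity 0.955 and score 0.0218, was listed in Ctr-OPCs alone. All 10 pairs of Vcam1 were also listed with the noncoding genes Gm26544 and Gm43109.

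Cd47 (ENSMUSG00000055447, chr16:49800533-49915010, plus strand) encodes the ligand of SIRPα. The start that the tables use for Cd47 is that of 1 of 9 coding transcripts in GENCODE, while 7 of the 9 start within 1 kb of the RefSeq start 55.1 kb further on. Its promoter quantile, 0.570 in Ctr-OPCs and 0.430 with IFN-γ, and its contacts therefore belong to the outlying start. Its gene total was 0.266 and 0.231. It had 3 connections in Ctr-OPCs and 1 with IFN-γ, over 8 and 9 pairs. The antisense gene Gm15518, whose start lies 1663 bp from the one used for Cd47, shared the element in 5 of its 17 pairs over both tables, was not listed in Ctr-OPCs and had 3 connections in IFN-γ-OPCs. Gm5407 shared it in 7 and 4930542D17Rik in 4.

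The highest score of any member was that of Cd47 with an element over its own RefSeq start, chr16:49855355-49855980. The activity of that element was 4.72 in Ctr-OPCs and 3.89 with IFN-γ. Its score was 0.110 in Ctr-OPCs and 0.0207 with IFN-γ, and its contact 0.00623 and 0.00123, where the latter is the pseudocount alone because the contact without it was 0. The lost connection was thus between 2 annotated starts of the same gene. The bases before the RefSeq start are shown because that element covers them (GRCm38.p6, mm10, chr16:49855404-49855632, plus strand, 5′ to 3′). No GAS, IRF or kappa-B match was found there.
Cd47 promoter: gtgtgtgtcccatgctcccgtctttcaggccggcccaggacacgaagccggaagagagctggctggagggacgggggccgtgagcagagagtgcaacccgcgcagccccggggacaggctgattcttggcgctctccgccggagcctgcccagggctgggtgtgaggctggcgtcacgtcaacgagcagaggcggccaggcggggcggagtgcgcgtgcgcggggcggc
By the power-law score this pair stayed above 0.05, at 0.162 and 0.130. The same element was listed with 18 target genes in Ctr-OPCs and 12 with IFN-γ.

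The other Cd47 connections lay closer to the start used in the tables. An intron element at chr16:49834334-49835133 was a connection in both conditions, with activity 1.42 in Ctr-OPCs and 0.992 with IFN-γ and score 0.0583 and 0.0679. An element 4.02 kb before the start, chr16:49796132-49796902, had activity 0.470 and 0.183, a ratio of 0.388, and contact 0.0324 and 0.0597, a ratio of 1.84. With a reciprocal overlap of 50% this pair is no longer matched, which ends the only downward activity call of the members and 1 of their 3 upward contact calls. Its score went from 0.0572 to 0.0472, just under the cut-off. An element in an intron of Ift57, 46.8 kb before the start at chr16:49753237-49754148, had activity 1.57 and 2.96, a ratio of 1.88, with score 0.0241 and 0.0382. The intervals of this and the preceding element differ in length between the tables, by 912 against 500 bases and by 771 against 500 bases. The same holds for the intron element above, at 800 against 500, and the element at the RefSeq start, at 626 against 500. It also holds for the gained Cd274 element, at 752 against 500, and the shared Icam1 intron element, at 632 against 500.

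A Cd47 intron element at chr16:49839472-49839971 held the other IRF match of the members, at chr16:49839510, and is shown for that reason (mm10, chr16:49839472-49839771, plus strand, 5′ to 3′, match in capitals as read on this strand). Its activity was 0.640 in Ctr-OPCs and 0.794 with IFN-γ, and its score 0.0207 and 0.0289.
Cd47 intron element: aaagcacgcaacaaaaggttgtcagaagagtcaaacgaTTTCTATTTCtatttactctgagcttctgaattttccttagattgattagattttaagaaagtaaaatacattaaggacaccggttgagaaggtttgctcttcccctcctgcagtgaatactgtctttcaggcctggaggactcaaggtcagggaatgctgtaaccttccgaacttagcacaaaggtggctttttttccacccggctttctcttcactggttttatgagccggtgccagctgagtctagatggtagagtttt
The remaining Cd47 pairs were listed in 1 condition each, with scores between 0.0226 and 0.0471 for the 3 of Ctr-OPCs and between 0.0230 and 0.0315 for the 4 of IFN-γ-OPCs. All 7 of their elements were present in the other table, with other targets. One of the 4, chr16:49965559-49966058, held the only GAS match among the members' elements in IFN-γ-OPCs.

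**Figure D4:**
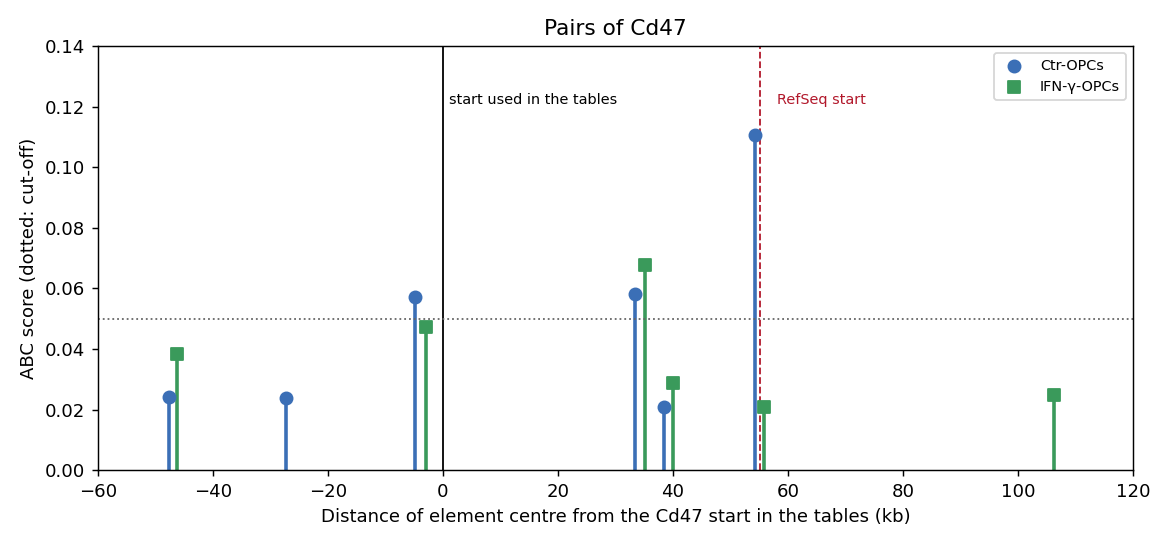
ABC score of the Cd47 pairs near the start used in the tables, against distance of the element centre from that start in kb (the pairs beyond the axis are in 1 condition each), in Ctr-OPCs (circles) and IFN-γ-OPCs (squares), drawn slightly apart from the true distance, with the cut-off of 0.05 dotted and the RefSeq start dashed. The element at the RefSeq start falls from 0.110 to 0.0207, and the intron element at 34.2 kb stays above the cut-off.

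Set side by side, 14 pairs of 5 members could be matched between the tables. That is 63.6% of the members' pairs in Ctr-OPCs (95% Wilson interval 43.0 to 80.3%) and 60.9% in IFN-γ-OPCs (40.8 to 77.8%), beside 45.8% and 42.8% of all pairs. The intervals cover counting error only, and pairs of 1 gene are not independent. With 50% reciprocal overlap the shares were 59.1% and 56.5%, beside 40.1% and 37.4% of all pairs. For pairs above 0.05 in both conditions they were 3 of 6 (50%) and 3 of 5 (60%), beside 49.5% and 46.3%. Of the 17 unmatched pairs, 10 had an element that was listed with other genes in the other table and 7 had an element that was not listed there at all. Among the 14 matched pairs, activity was higher with IFN-γ in 7 and contact in 8. Activity passed 1.5-fold upwards in 2, the Cd274 element at 4.79 kb and the Cd47 element in Ift57, and downwards in 1, the Cd47 element 4.02 kb before its start. Of all 19332 matched elements, 9.37% passed upwards and 13.3% downwards. Contact passed 1.5-fold upwards in 3 pairs, both distant elements of Vcam1 and the Cd47 element 4.02 kb before its start. It passed downwards in 1, the Cd47 element at its RefSeq start. Of all 29858 matched pairs, 12% passed upwards and 8.33% downwards. The median log2 ratio of activity was -0.01 for the members' pairs and -0.08 for all matched elements, and that of contact was 0.26 and 0.05. The activity median changed sign, to 0.08 with 50% reciprocal overlap or without Cd47 and to 0.10 after scaling by table medians, so it has no settled direction. The contact median was 0.16 with reciprocal overlap and 0.41 for pairs above 0.05.

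**Figure D5:**
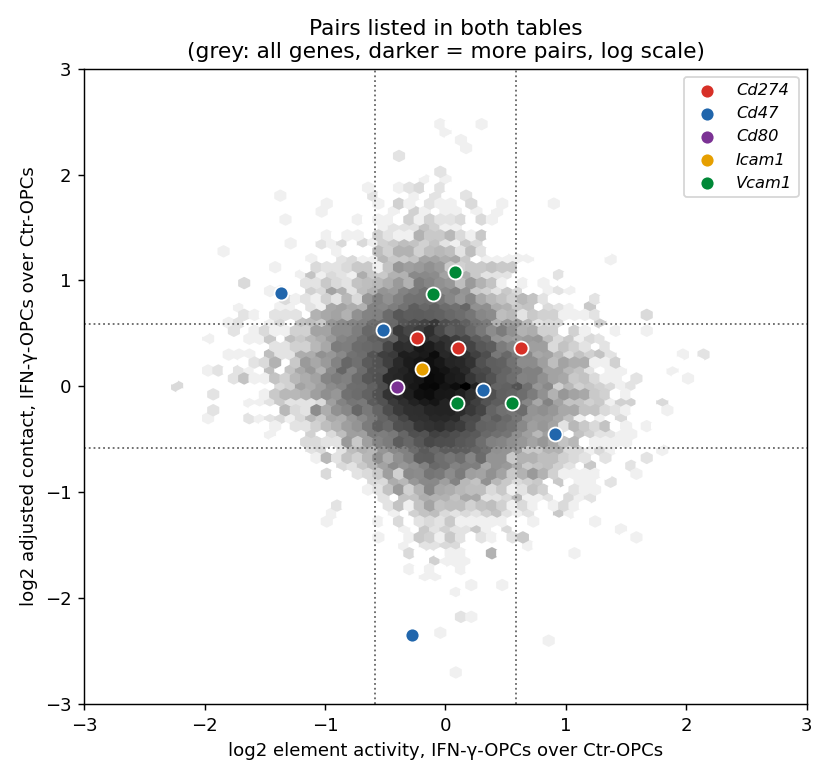
Log2 ratio of contact against log2 ratio of element activity, IFN-γ-OPCs over Ctr-OPCs, for the 14 matched pairs of members (coloured points, 1 colour per gene) over all 29858 matched pairs (grey, darker where pairs are denser, log scale), with 1.5-fold dotted. Both distant Vcam1 pairs and a Cd47 pair lie above 1.5-fold in contact, the Cd274 pairs lie above 0 in contact, and the Cd47 pair at the bottom is the one at its RefSeq start, where the pseudocount sets the IFN-γ-OPC contact and so the position.

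Most of the members' elements were not theirs alone, as for genes at large. The element was also listed with another gene in 16 of 22 pairs in Ctr-OPCs (72.7%) and 17 of 23 with IFN-γ (73.9%), beside 70.2% and 69.7% of all pairs. The listed pairs held between 2.09% and 36.4% of a member's gene total in Ctr-OPCs and between 4.98% and 30.7% in IFN-γ-OPCs, with Cd47 at the top in both. The rest of the total is not itemised in the tables.

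The wider pathway was described with 50 genes in 5 lists: relatives of the B7 family, co-stimulatory proteins of the TNF and TNF receptor superfamilies, other checkpoint ligands, other adhesion ligands, and binding partners of the members. Of them, 38 were listed in either table and 31 in both. Connections were more numerous with IFN-γ for 7, fewer for 2 and the same for 29, and went from 11 to 16 in sum. Over all genes, 14.9% had more and 13% fewer. The gene total passed 1.5-fold for none, with a median log2 ratio of -0.08. Promoter quantiles were higher by more than 0.1 for 4 and lower for 2 of the 31, near the 8.79% and 8.45% of all genes. By list, those with more against fewer connections numbered 0 and 0 of 5 listed B7 relatives and 2 and 0 of 7 TNF and TNF receptor superfamily proteins, namely the ligand Tnfsf15 and the receptor Tnfrsf14. They numbered 3 and 0 of 7 other checkpoint ligands, 1 and 2 of 12 other adhesion ligands, and 1 and 0 of 7 binding partners. Tnfsf15 and Tnfrsf14 were named after their values were seen.

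All 10 OPC markers were listed in both tables, with a median promoter quantile of 0.930 in Ctr-OPCs and 0.923 with IFN-γ, beside 0.688 and 0.686 over all genes. Of 18 microglia and macrophage markers, cells that can themselves carry these ligands, 10 were listed in Ctr-OPCs and 11 with IFN-γ, with medians of 0.688 and 0.684 and a summed gene total of 8.91 and 8.32 over those in both. Itgam, Cd68, Ptprc, Trem2, C1qa and Fcrls were listed in neither. Of 12 endothelial and mural markers 8 and 10 were listed, with medians of 0.646 and 0.690 and a summed total of 5.39 in both, and Cspg4 among them is also an OPC marker. Of 8 dendritic and B cell markers 1 and 3 were listed, with a summed total of 1.05 and 0.967 over those in both, and of 8 astrocyte markers 6 and 6, with 6.62 and 6.44. The sums hide single markers that went either way. Log2 ratios of the gene total ran from -0.304 to 0.512 for microglia and macrophages and from -0.328 to 0.404 for endothelial and mural cells. For astrocytes they ran from -0.299 to 0.363, so each list reached above the 0.303 of Cd274. Beside the promoter quantiles of Icam1 and Cd274, those of some markers also differed by more than 0.1. The mural markers Kcnj8 (0.428 and 0.733) and Pdgfrb (0.618 and 0.744) and the microglia marker Csf1r (0.473 and 0.625) were higher with IFN-γ, and the astrocyte markers Aldh1l1 (0.620 and 0.478) and Gja1 (0.590 and 0.451) were lower. A listed promoter is not a measure of expression, and the part of other cell types in the values above was not tested.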

How the data were processed

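The files were 2 prediction tables of the ABC model, 1 per condition, each pooled by the authors over 3 H3K27ac-HiChIP libraries. The build (mm10) and HiC-Pro are named in the submitters' processing notes, and the version of HiC-Pro is not given in the sources used here. By the study's methods, ATAC-seq and H3K27ac CUT&RUN supplied activity, HiChIP supplied contact, and defaults were used for candidate elements and activity. The scaling of activity and contact between conditions is not stated. The authors deposited the ABC score as a fraction, element activity as a coverage signal, and the promoter quantile (0 to 1), contact, its adjusted form, the product of activity and contact and the power-law score as score values. The shorter tables held the same scores and were not used.

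From these values, the gene total was computed by dividing each activity-contact product by its score, taken as the median over a gene's pairs. Elements were matched by mutual best overlap of at least 1 bp, and pairs also by target gene. A gene listed in 1 table counted as having 0 connections in the other. A contact limit for an unlisted pair is the lowest listed score times the gene total over the activity. Fold thresholds were 1.5, and 0.1 for quantile differences. With 1 pooled table per condition no test was run, and precision by depth is unknown.

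Symbols, starts and annotation came from GENCODE M21 and RefSeq starts from GRCm38.p6, both of the files' build. Positions are 1-based. The members and gene lists were chosen with earlier results of these data known. Named were all members, up to 3 genes that share most elements with a member, and pathway genes whose total passed 1.5-fold or whose connections changed by 2 or more, of which there were 0. Icam4 and Icam5 were added after their values were seen. One Vcam1 pair that enters the counts is not reported here by itself. Alternatives varied the cut-off, overlap, thresholds, scaling, pseudocount and power law. Leaving out Cd47 was added after the data were seen. The matching and counting steps were tested on simulated data. Scripts ran in Python 3.11.15 with pandas 2.3.3 and NumPy 2.4.6, with intervals by SciPy 1.17.1, and plots were drawn in matplotlib 3.10.9.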

Additional observations from a re-analysis of the deposited data

How the results depend on the processing

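Of 55 alternative values, 31 kept the direction and stayed within the range set for a change, 21 moved and 3 reversed. At other cut-offs the connections numbered 22 in Ctr-OPCs and 23 with IFN-γ over all listed pairs, 1 and 0 above 0.1, and 8 in each condition with the power-law score. The median log2 gene total was -0.0386 after subtracting the median of all genes and -0.0472 from the power law. The median log2 activity, -0.0112 as reported, reversed to 0.0818 with 50% reciprocal overlap and to 0.0971 after dividing by each table's median, and was -0.256 for pairs above 0.05. Elements higher in activity numbered 0 at 2-fold and 1 among pairs above 0.05, and those lower numbered 0 with reciprocal overlap. The median log2 contact was 0.373 without the pseudocount, 0.160 with reciprocal overlap and 0.411 for pairs above 0.05. Without Cd47 there were 3 connections in Ctr-OPCs and 4 with IFN-γ, against 6 and 5 with it, the median log2 total was -0.0806, activity reversed to 0.0818 with 1 element higher and 0 lower, contact was 0.360 with 0 pairs lower, and 0 quantiles were lower. So each downward call in activity, contact and quantile was of Cd47. Fewer pairs or genes enter the subsets by construction; for the other changes the cause was not tested.

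No paired analysis was possible because the replicate numbers in the labels belong to libraries that were merged into 1 table per condition, and for the same reason no library was left out. With no replicate error and unknown depth, no difference between the tables has a margin of error, and a value close to 0.02, 0.4 or 0.05 crosses that limit by a small amount. Contacts in 5 kb bins do not separate neighbouring elements.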
